A study of Homo sapiens with 27 samples.

Results

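The genes described here are those of MHC class I antigen presentation: the heavy chains HLA-B, HLA-C, HLA-E and HLA-F, the light chain B2M, the peptide transporter subunits TAP1 and TAP2, the loading factor TAPBP (tapasin) and the transactivator NLRC5. They are 9 of the 27115 genes listed in each file, chosen by symbol. All 9 were among the 13076 genes that passed the filter on low values over the whole series, a CPM (reads on a gene scaled to the authors' total for the library) of at least 1 in at least 3 libraries.

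MHC class I molecules show peptides from inside the cell to CD8 T cells. Proteasome products are pumped into the endoplasmic reticulum by the TAP1 and TAP2 heterodimer, are loaded with the help of tapasin onto a heavy chain paired with B2M, and travel to the surface. HLA-B and HLA-C are classical heavy chains, HLA-E shows leader peptides to NK cell receptors, and HLA-F is a nonclassical heavy chain of low abundance. NLRC5 binds no DNA by itself and acts at the class I promoters through factors bound to the S, X and Y boxes. Loss of B2M or of surface class I is known in diffuse large B-cell lymphoma (DLBCL).

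RNA was sequenced from 3 DLBCL cell lines, Karpas422, OCI-Ly1 and HBL1, which the study takes as examples of the OXPHOS, GCB and ABC subtypes. Cells of each line carried a lentiviral pLKO.1 vector with puromycin resistance and YFP that expressed a control hairpin (shCTRL) or 1 of 2 hairpins against the mitochondrial deacylase SIRT3 (shSIRT3-1 and shSIRT3-2), and RNA was taken on day 8. With 3 replicates in each of 9 groups there were 27 libraries. No further genotype or treatment distinguished the groups, each subtype is represented by 1 line, and the labels do not say that replicates were separate infections, so the p-values measure the spread between these samples, which may be technical. The study describes its knockdown as replicated within each line.

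SIRT3, whose exons overlap those of RIC8A, was lower in every knockdown library than in any control library of its line. Control libraries held 9.14 to 16.4 CPM, shSIRT3-1 libraries 1.06 to 2.79 CPM and shSIRT3-2 libraries 2.84 to 6.24 CPM. The level left by shSIRT3-2 exceeded that left by shSIRT3-1 in Karpas422 (log2 difference 0.99 ± 0.14 SE, adjusted p = 0.0025) and OCI-Ly1 (1.70 ± 0.26, adjusted p = 0.0069). In HBL1 the difference was 0.56 ± 0.15 (adjusted p = 0.021), under the 1.5-fold threshold.

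Libraries held 28694398 to 53405456 reads on genes. The 6 B-cell markers given here (CD79A, CD79B, PAX5, MS4A1, CD22 and BLNK) were above 1 CPM in all 27 libraries, and their summed level in Karpas422 was 1564 to 2179 CPM with shCTRL and 915 to 1374 CPM with shSIRT3-2, and for HBL1 it was 1904 to 2388 CPM and 1568 to 1646 CPM. The markers of other cell types were low. The T-cell markers CD2 and CD3E reached 0.0179 and 0.474 CPM and CD3D 1.59 CPM, and their sum in Karpas422 was 1.67 to 1.97 CPM with shCTRL and 0.593 to 1.53 CPM over the knockdown libraries. Among myeloid markers CD14 reached 0.15 CPM, LYZ 0.534 CPM and CSF1R 1.02 CPM. COL1A2 and EPCAM were above these levels in HBL1. There the summed fibroblast markers, nearly all COL1A2, were 12.9 to 15.4 CPM with shCTRL, 1.78 to 5.05 CPM with shSIRT3-1 and 36.8 to 62.1 CPM with shSIRT3-2. The part of these shifts in the results below was not tested, and in bulk RNA fewer cells of a type and less RNA per cell cannot be told apart. HBL1 shSIRT3-1 replicate 3 stood apart from the other replicates of its group, with a chi-square per degree of freedom over genes of 290.7 and 343.1 against 22.1 for the remaining pair, and HBL1 log2 fold changes of the genes tested there with shSIRT3-1 are also given without it. The same measure was 47.7 to 138 against 7.79 to 21.0 for replicate 3 of HBL1 shCTRL, HBL1 shSIRT3-2, Karpas422 shSIRT3-1 and Karpas422 shSIRT3-2, OCI-Ly1 shSIRT3-1 replicate 2 and OCI-Ly1 shSIRT3-2 replicate 2.

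In GRCh37 coordinates with the GENCODE 44 annotation lifted to that build, 7 of the genes lie in the MHC on chromosome 6: HLA-F at chr6:29690552-29706305, HLA-E at chr6:30457286-30461971, HLA-C at chr6:31236526-31239907, HLA-B at chr6:31321649-31334844, TAP2 at chr6:32789610-32806516, TAP1 at chr6:32812986-32821593 and TAPBP at chr6:33267471-33282061. B2M is at chr15:45003556-45011049 and NLRC5 at chr16:57023397-57117443. Exons of HLA-F overlap those of the antisense gene HLA-F-AS1 and exons of TAP1 those of PSMB8-AS1. How strand was used in the counting is not given in the sources used here, so reads of such partners could not be told apart. The HLA heavy chain genes are paralogs that share stretches of sequence and were aligned to 1 reference, and HLA-B and HLA-C are also highly polymorphic, which HLA-E and HLA-F are not. Counts of HLA-B and HLA-C, above all between lines with different alleles, are therefore uncertain, and the share of reads lost or shared was not tested.

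The proximal promoters are shown because they are where the factors that act with NLRC5 and the interferon-responsive factors are known to bind class I genes. RefSeq promoters on GRCh38.p14 were found for 7 of the 9 genes, and HLA-E and NLRC5 had no entry. Each line below gives the 150 bases just upstream of the annotated start, read 5′ to 3′ on the gene's strand, with matches to 4 motif cores in capitals. The cores, searched on both strands, were AAANNGAAA of the interferon-stimulated response element (ISRE), TTCNNNGAA of the interferon-gamma activated site (GAS), ATTGG, the CCAAT box read on the opposite strand, and TGACG of the cyclic AMP response element (CRE). The windows are chr6:31357180-31357329 (minus strand), chr6:31272093-31272242 (minus), chr6:29723284-29723433 (plus), chr15:44711367-44711516 (plus), chr6:32853705-32853854 (minus, the upstream of 2 listed starts), chr6:32838740-32838889 (minus) and chr6:33314079-33314228 (minus).
HLA-B: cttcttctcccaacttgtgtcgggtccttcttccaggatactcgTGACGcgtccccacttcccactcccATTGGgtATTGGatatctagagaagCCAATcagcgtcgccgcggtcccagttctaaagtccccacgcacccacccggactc
HLA-C: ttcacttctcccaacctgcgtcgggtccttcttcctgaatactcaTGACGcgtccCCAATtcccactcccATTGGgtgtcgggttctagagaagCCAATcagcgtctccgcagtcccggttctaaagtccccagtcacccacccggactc
HLA-F: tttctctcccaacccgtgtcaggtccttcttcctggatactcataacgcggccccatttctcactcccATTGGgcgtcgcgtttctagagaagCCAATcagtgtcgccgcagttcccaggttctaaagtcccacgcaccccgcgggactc
B2M: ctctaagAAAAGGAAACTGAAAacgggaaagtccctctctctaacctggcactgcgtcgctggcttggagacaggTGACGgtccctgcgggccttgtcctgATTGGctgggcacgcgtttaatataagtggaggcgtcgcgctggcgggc
TAP1: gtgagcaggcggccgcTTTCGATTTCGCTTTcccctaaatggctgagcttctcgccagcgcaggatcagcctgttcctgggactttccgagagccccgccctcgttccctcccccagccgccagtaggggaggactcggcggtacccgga
TAP2: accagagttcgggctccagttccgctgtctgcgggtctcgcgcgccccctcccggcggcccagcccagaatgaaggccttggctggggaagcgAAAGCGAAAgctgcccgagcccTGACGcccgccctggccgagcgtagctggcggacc
TAPBP: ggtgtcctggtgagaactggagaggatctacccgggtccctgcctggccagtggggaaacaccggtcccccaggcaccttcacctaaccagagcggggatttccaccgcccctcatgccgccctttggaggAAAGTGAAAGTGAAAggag

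HLA-B and HLA-C each held 3 CCAAT boxes and 1 CRE core, and HLA-F held 2 CCAAT boxes and no CRE core. B2M held 1 CCAAT box, 1 CRE core and 2 overlapping ISRE cores. TAP1 and TAPBP each held 2 overlapping ISRE cores, TAP2 held 1 ISRE core and 1 CRE core, and none of the 7 windows held the GAS core. Among the 35116 promoters of the table the same 150 bases held an ISRE core in 5.07%, a CCAAT box in 23.5%, a CRE core in 15.4% and a GAS core in 3.66%. A match is a description of letters and was not tested as a binding site. A site outside the 150 bases, cut by their edge or with other letters would be missed. The lack of an ISRE match in HLA-B, HLA-C and HLA-F thus does not show that they have no such element.

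In control cells NLRC5 and HLA-B differed between all 3 lines, with OCI-Ly1 lowest. NLRC5 measured 1.46, 2.10 and 1.53 CPM in its 3 control libraries, against 49.98, 35.05 and 23.9 CPM in Karpas422 and 101, 88.2 and 72.3 CPM in HBL1. The 3 lines did not overlap, and each neighbouring pair differed: NLRC5 was lower in OCI-Ly1 than in Karpas422 (log2 fold change -4.29 ± 0.25 SE, adjusted p = 1.2e-07) and higher in HBL1 than in Karpas422 (1.31 ± 0.25, adjusted p = 0.00087).

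HLA-B followed the same order. Its control libraries held 26.6, 17.9 and 19.2 CPM in OCI-Ly1, 195, 158 and 109.6 CPM in Karpas422 and 358, 358 and 287 CPM in HBL1. The step from Karpas422 to OCI-Ly1 was -2.84 ± 0.22 (adjusted p = 9.8e-07) and that from Karpas422 to HBL1 was 1.15 ± 0.22 (adjusted p = 0.00077). The nonclassical HLA-E was 9.37, 10.1 and 20.0 CPM in OCI-Ly1 but 112 to 165 CPM in Karpas422 and 114 to 133 CPM in HBL1. Its fall from Karpas422 to OCI-Ly1 was -3.45 ± 0.26 (adjusted p = 8.0e-07), while Karpas422 and HBL1 differed by less than their spread (-0.12 ± 0.26, adjusted p = 0.69).

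In all, 6 of the 9 genes were called lower in OCI-Ly1 than in Karpas422 (HLA-B, HLA-C, HLA-E, B2M, TAP1 and NLRC5) and 0 higher, where 28.2% and 22.6% of the 12607 genes tested were called lower and higher, a call being a fold above 1.5 with an adjusted p under 0.05. At an unadjusted p under 0.05, 7 of the 9 differed, and the share of all genes at that threshold is not given here. By the stricter call, 6407 of the 12607 genes already differed, so the 7 are not read as an excess. Against Karpas422, HBL1 had 2 of 9 lower (TAP1 and TAP2) and 2 higher (HLA-B and NLRC5), with 28.8% and 25.8% of all genes. Against OCI-Ly1, HBL1 had 1 lower (TAP2) and 6 higher (HLA-B, HLA-C, HLA-E, HLA-F, B2M and NLRC5), with 25% and 29.6% of all genes. TAP1, like the heavy chains, was lowest in OCI-Ly1 (23.4 to 31.7 CPM), though its libraries overlapped those of HBL1 (24.5 to 45.0 CPM). TAP2 and TAPBP did not follow the heavy chains: TAP2 was highest in Karpas422 (142 to 185 CPM), then OCI-Ly1 (103 to 118 CPM, a step of -0.53, below the fold threshold), then HBL1 (36.9 to 59.3 CPM), and TAPBP lay within 53.9 to 86.4 CPM in all 9 control libraries. The HLA-F call between HBL1 and OCI-Ly1 (0.92 ± 0.32, adjusted p = 0.027) was lost without OCI-Ly1 shCTRL replicate 2 (adjusted p = 0.094), HBL1 shCTRL replicate 1 (0.088) or HBL1 shCTRL replicate 2 (0.075), and its sign turned under quantile normalization (-0.32). HLA-F passed the filter of this fit only through Karpas422 and HBL1 libraries, its OCI-Ly1 controls holding 0.424 to 0.756 CPM. Its differences from OCI-Ly1 therefore support nothing. Single control libraries also decided calls that were not made with all 9. Against Karpas422, OCI-Ly1 was called lower for TAP2 without Karpas422 shCTRL replicate 2 or OCI-Ly1 shCTRL replicate 1 (both -0.60, adjusted p = 0.031 and 0.030) and for HLA-F without Karpas422 shCTRL replicate 3 (-1.07, adjusted p = 0.0075). HBL1 was called higher than Karpas422 for HLA-C without Karpas422 shCTRL replicate 1 (0.73, adjusted p = 0.020) and higher than OCI-Ly1 for TAP1 without HBL1 shCTRL replicate 3 (0.68, adjusted p = 0.037).

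Compared between genes per kilobase of the canonical transcript, B2M was the most abundant in every line, at 811 ± 171, 205 ± 12.2 and 617 ± 12.7 CPM per kb (SD, n = 3) in control cells of Karpas422, OCI-Ly1 and HBL1. In Karpas422 the heavy chains followed, HLA-B at 100.4 ± 27.8 and HLA-C at 83.7 ± 25.3, which differed by less than 1 SD, and HLA-E at 54.1 ± 10.3. In HBL1 the order was the same with HLA-B at 218 ± 26.7, HLA-C at 117 ± 11.7 and HLA-E at 49.2 ± 3.87. In OCI-Ly1 HLA-C (34.4 ± 8.25) came next after B2M, then TAPBP at 22.2 ± 2.73, TAP2 at 19.3 ± 1.49 and HLA-B at 13.8 ± 3.07. NLRC5 at 0.25 ± 0.052 and HLA-F at 0.406 ± 0.113 were at the bottom there. HLA-F was below 1 CPM per kb in control cells of all 3 lines.

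**Figure D1:**
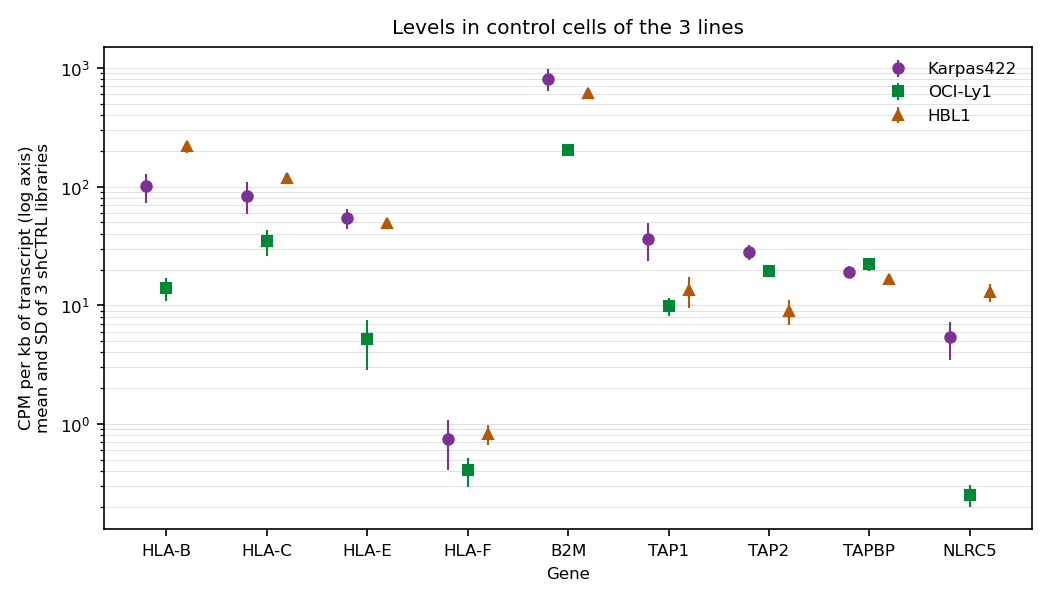
Level of each gene in control cells, as CPM per kilobase of the canonical transcript on a log axis, with points for the mean and bars for the SD of the 3 shCTRL libraries of each line. OCI-Ly1 lies lowest for HLA-B, HLA-C, HLA-E, HLA-F, B2M, TAP1 and NLRC5, and the 3 lines lie close together for TAPBP (16.5 to 22.2 CPM per kb).

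Over the 3 lines together, in a fit with line and hairpin as terms, NLRC5 rose with shSIRT3-1 and the other 8 genes were not called. The log2 fold change of NLRC5 was 0.92 ± 0.13 SE (1.90-fold, adjusted p = 9.3e-06), and it was above its line's control mean in 9 of 9 shSIRT3-1 libraries. This 1 of 9 compares with 3.92% of all genes called higher. With shSIRT3-2 the change of NLRC5 was 0.04 ± 0.13 (adjusted p = 0.83), with 5 of 9 libraries above the control mean.

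With shSIRT3-2, 0 of 9 genes were called by limma, by edgeR's likelihood ratio test or by its quasi-likelihood test, and 0 had an unadjusted p under 0.05, where 3.29% of all genes were called higher and 10.2% lower. The median log2 fold change of the 9 genes was 0.06 with shSIRT3-1 and -0.01 with shSIRT3-2, beside medians of -0.05 and -0.03 over all genes tested. The genes other than NLRC5 ranged from -0.45 for HLA-E to 0.19 for HLA-B with shSIRT3-1 and from -0.35 for HLA-E to 0.34 for TAP1 with shSIRT3-2. HLA-E (-0.45 ± 0.21) had an adjusted p of 0.092, and without Karpas422 it was called, at -0.81 (adjusted p = 0.026).

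**Figure D2:**
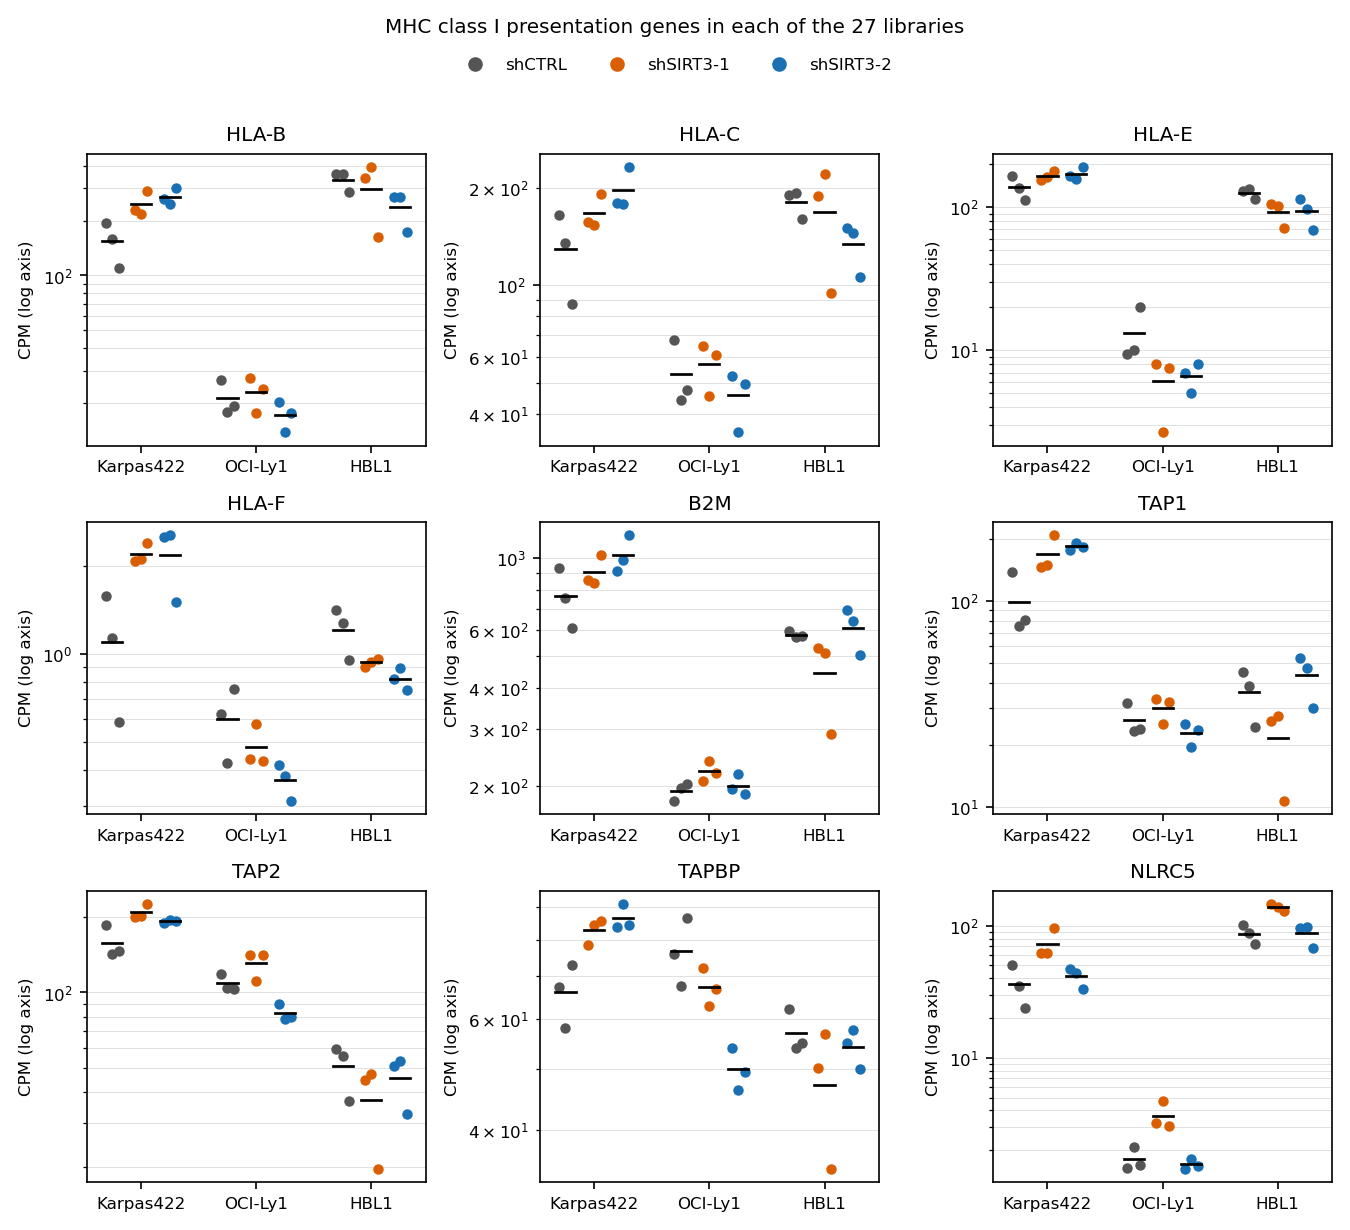
CPM of each gene in each of the 27 libraries on a log axis with its own range per panel, by line and hairpin, with points for replicates 1, 2 and 3 from left to right and black lines for the group mean. NLRC5 is higher with shSIRT3-1 than with shCTRL in every line without overlap. Of all genes, 19.0%, 15.9% and 20.1% are so in Karpas422, OCI-Ly1 and HBL1. HLA-B, HLA-F and TAP1 are higher with both hairpins in Karpas422.

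The hairpins differed directly in NLRC5. Over the 3 lines it was lower with shSIRT3-2 than with shSIRT3-1 by a log2 difference of -0.88 ± 0.13 (adjusted p = 2.3e-05), the 1 gene of the 9 called, where 6.05% of all genes were called lower. Both NLRC5 calls held in every alternative run. The NLRC5 change with shSIRT3-1 ranged from 0.76 to 1.06 when libraries were left out and from 0.82 to 1.05 under the other settings.

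NLRC5 was then read within each line. In Karpas422 the shSIRT3-1 libraries held 62.0, 61.8 and 95.7 CPM, above the control range of 23.9 to 49.98 CPM, while the shSIRT3-2 libraries held 46.9, 43.9 and 33.0 CPM, within it. In OCI-Ly1 the values were 3.23, 4.71 and 3.03 CPM with shSIRT3-1 and 1.44, 1.72 and 1.52 CPM with shSIRT3-2, beside 1.46, 2.10 and 1.53 CPM with shCTRL. These low levels rest on 141 to 458 reads a library. In HBL1, the line with the highest level, the values were 146, 139 and 129.8 CPM with shSIRT3-1 and 96.03, 98.5 and 68.0 CPM with shSIRT3-2, beside 101, 88.2 and 72.3 CPM with shCTRL.

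The NLRC5 change with shSIRT3-1 was 1.04 ± 0.26 for Karpas422 (adjusted p = 0.014), 1.05 ± 0.21 for OCI-Ly1 (adjusted p = 0.023) and 0.68 ± 0.17 for HBL1 (adjusted p = 0.013). A difference between lines in the NLRC5 response was not detected (F test, adjusted p = 0.56). With shSIRT3-2 the changes were 0.23, -0.10 and -0.00, none called. The direct difference of shSIRT3-2 from shSIRT3-1 was called lower in OCI-Ly1 (-1.16 ± 0.21, adjusted p = 0.013) and HBL1 (-0.68 ± 0.17, adjusted p = 0.014) and missed the threshold in Karpas422 (-0.81 ± 0.26, adjusted p = 0.052).

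Single libraries moved these within-line calls of NLRC5 past the threshold. With shSIRT3-1 the call was lost in Karpas422 without shSIRT3-1 replicate 3 (0.83, adjusted p = 0.053), in HBL1 without shCTRL replicate 3 (0.55, below the fold threshold), and in OCI-Ly1 without shCTRL replicate 3 (adjusted p = 0.07) or without shSIRT3-1 replicate 1 (0.057), 2 (0.08) or 3 (0.059). The direct difference between hairpins was lost in OCI-Ly1 without shSIRT3-2 replicate 1 or 3 (both 0.052) and in HBL1 without shSIRT3-2 replicate 3 (-0.51), and it was called in Karpas422 without shCTRL replicate 1 (0.033) or 3 (0.027).

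In Karpas422 genes for heavy chains and a subunit of the transporter rose. With shSIRT3-1, 4 of 9 genes were called higher (HLA-B, HLA-F, TAP1 and NLRC5), where 4.45% of the 11235 genes tested were. With shSIRT3-2, 4 of 9 were called higher (HLA-B, HLA-C, HLA-F and TAP1), where 5.55% of all genes were. HLA-B, HLA-F and TAP1 were called with both hairpins, 3 of 9 beside 1.85% of all genes. None of the 9 was called lower with either hairpin, where 11.5% and 9.44% of all genes were. All 9 had a log2 fold change above 0 with both, with medians of 0.42 and 0.43 beside -0.08 and -0.00 over all genes.

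HLA-B went from 195, 158 and 109.6 CPM in the controls to 228, 218 and 292 CPM with shSIRT3-1 and 264, 245 and 300.4 CPM with shSIRT3-2. All 6 knockdown libraries lay above all 3 controls. The log2 fold changes were 0.70 ± 0.20 (adjusted p = 0.022) and 0.84 ± 0.20 (adjusted p = 0.011). HLA-C, its classical partner, went from 165, 135 and 87.5 CPM to 156, 154 and 192 CPM with shSIRT3-1 and 179.8, 178 and 232 CPM with shSIRT3-2. It overlapped the controls with shSIRT3-1 (0.41 ± 0.21, adjusted p = 0.16) and rose with shSIRT3-2 (0.64 ± 0.21, adjusted p = 0.042).

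HLA-F was at 1.58, 1.13 and 0.585 CPM in the controls, at 2.08, 2.12 and 2.41 CPM with shSIRT3-1 and at 2.51, 2.55 and 1.51 CPM with shSIRT3-2, on 63 to 278 reads a library. Its log2 fold changes were 1.03 ± 0.32 (adjusted p = 0.031) and 0.99 ± 0.32 (adjusted p = 0.038), and with shSIRT3-2 replicate 3 fell within the control range. HLA-E, at 112 to 165 CPM in the controls, had changes of 0.27 ± 0.14 and 0.32 ± 0.14, not called.

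TAP1, which with TAP2 forms the peptide pump, went from 138, 75.7 and 80.8 CPM to 146, 149 and 207 CPM with shSIRT3-1 and 177, 190.0 and 183 CPM with shSIRT3-2. The knockdown libraries did not overlap the controls, and the changes were 0.81 ± 0.21 (adjusted p = 0.017) and 0.95 ± 0.21 (adjusted p = 0.009). TAP2 and TAPBP moved less. TAP2 had changes of 0.42 ± 0.11 (adjusted p = 0.017) and 0.30 ± 0.11 (adjusted p = 0.067), and TAPBP of 0.33 ± 0.10 (adjusted p = 0.025) and 0.39 ± 0.10 (adjusted p = 0.013), all below the fold threshold. B2M, the light chain, ran from 608 to 929.6 CPM in the controls and from 839.9 to 1173 CPM over the knockdown libraries, with changes of 0.26 ± 0.18 and 0.43 ± 0.18 that were not called. The 3 knockdown libraries lay above all 3 controls for 6 of 9 genes with shSIRT3-1 and 5 of 9 with shSIRT3-2, where 19% and 22.6% of all genes did.

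The Karpas422 control libraries spread widely for these genes, with replicate 1 above the control mean for 9 of 9 genes and replicate 3 below it for 8 of 9. The HLA-B call with shSIRT3-1 was lost without shCTRL replicate 3 (0.48, adjusted p = 0.052) or shSIRT3-1 replicate 3 (0.57, adjusted p = 0.079), and the TAP1 call without shCTRL replicate 2 (0.067) or 3 (0.056) or shSIRT3-1 replicate 3 (0.064). No single library removed the HLA-B or TAP1 call with shSIRT3-2, but leaving out 1 replicate number of all 3 groups did. Without replicate 2 they were lost (adjusted p = 0.076 and 0.12), and without replicate 3 the HLA-B change was 0.53, below the fold threshold. Without replicate 3 HLA-B with shSIRT3-1 was 0.35 and HLA-C with shSIRT3-2 was 0.26 (adjusted p = 0.065). Without replicate 2, 0 of 9 genes were called with either hairpin. The share of all genes called in that smaller fit is not given here. The HLA-F calls were lost without shCTRL replicate 2 or 3, and without 3 and 4 of the knockdown libraries with shSIRT3-1 and shSIRT3-2, at adjusted p of 0.056 to 0.11. The HLA-C call was lost without any of 7 single libraries (0.058 to 0.11) and with edgeR's quasi-likelihood test (0.053), and B2M was called with shSIRT3-2 without shCTRL replicate 1 (0.59, adjusted p = 0.044).

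**Figure D3:**
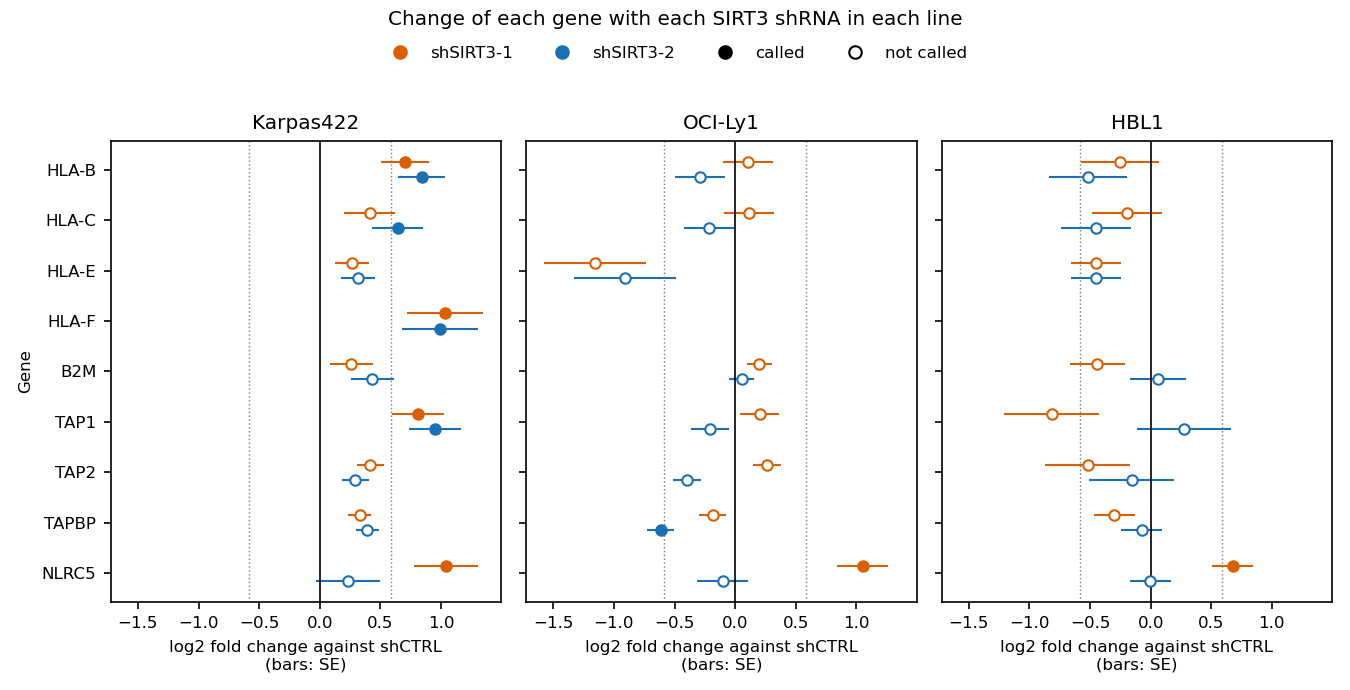
Log2 fold change of each gene against shCTRL (horizontal axis, with bars for the SE) for both hairpins in each line, with filled points for called changes and dotted lines at a fold of 1.5. All 9 genes lie right of 0 in Karpas422 with both hairpins, and NLRC5 with shSIRT3-1 is the filled point that recurs in all 3 lines. HLA-F has no points in OCI-Ly1 and HBL1, where it did not pass the filter.

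In OCI-Ly1, NLRC5 with shSIRT3-1 was the 1 call of 8 genes tested, where 2.04% of the 11205 genes tested were called higher. HLA-F did not pass the filter in this line, at 0.314 to 0.756 CPM on 32 to 76 reads a library. With shSIRT3-2, TAPBP fell and no other gene was called, 1 of 8 beside 4.26% of all genes called lower. Tapasin transcripts went from 76.0, 67.6 and 86.4 CPM with shCTRL to 53.9, 46.3 and 49.5 CPM with shSIRT3-2, all below the controls (log2 fold change -0.62 ± 0.11, adjusted p = 0.016). With shSIRT3-1 they held 72.1, 62.9 and 66.7 CPM, which overlapped the controls (-0.18 ± 0.11, adjusted p = 0.31).

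TAP2 separated the hairpins in this line. It held 118, 105 and 103 CPM with shCTRL, 141, 111 and 141 CPM with shSIRT3-1 and 89.7, 78.7 and 79.5 CPM with shSIRT3-2. Neither hairpin was called against shCTRL (0.26 ± 0.12, adjusted p = 0.18, and -0.40 ± 0.12, adjusted p = 0.062), but the direct difference of shSIRT3-2 from shSIRT3-1 was (-0.66 ± 0.12, adjusted p = 0.012). Together with NLRC5 this made 2 of 8 genes called lower with shSIRT3-2 than with shSIRT3-1, where 2.49% of all genes were.

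HLA-E had the largest point estimate downward in OCI-Ly1 without a call. It held 9.37, 10.1 and 20.0 CPM with shCTRL, 8.09, 2.68 and 7.58 CPM with shSIRT3-1 and 6.96, 5.03 and 8.03 CPM with shSIRT3-2. All 6 knockdown libraries lay below all 3 controls, and the changes were -1.16 ± 0.42 (adjusted p = 0.12) and -0.91 ± 0.42 (adjusted p = 0.19). Without OCI-Ly1 shSIRT3-1 replicate 2 the change with shSIRT3-1 was -0.65, not called. With the replicate number as a block, HLA-E was called lower with shSIRT3-1 (adjusted p = 0.033). The median change of the 8 genes was 0.15 with shSIRT3-1 and -0.25 with shSIRT3-2, beside 0.02 and 0.01 over all genes. The TAPBP call with shSIRT3-2 was lost without shCTRL replicate 3 (-0.53) or shSIRT3-2 replicate 2 (adjusted p = 0.065) or 3 (0.056), and the TAP2 difference without shSIRT3-1 replicate 1 (0.056) or 3 (0.061) or shSIRT3-2 replicate 3 (0.054).

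In HBL1, the line with the highest NLRC5 and HLA-B levels, 1 of 8 genes was called with shSIRT3-1, NLRC5 higher, where 8.83% of the 11862 genes tested were called higher and 18.8% lower. With shSIRT3-2, 0 of 8 were called by limma or either edgeR test, and 0 had an unadjusted p under 0.05, where 7.51% of all genes were called higher and 16% lower. Between the hairpins NLRC5 was the 1 call of 8, lower with shSIRT3-2, where 13.1% of all genes were. The other 7 genes tested had shSIRT3-1 log2 fold changes below 0, from -0.19 for HLA-C to -0.82 for TAP1, none of them called. Without HBL1 shSIRT3-1 replicate 3, HLA-B (0.14 in place of -0.25) and HLA-C (0.18) turned above 0, and the others moved nearer to it, with B2M at -0.16 in place of -0.44, TAP2 at -0.11 in place of -0.52, TAPBP at -0.09 in place of -0.30 and HLA-E at -0.27 in place of -0.45. HLA-F did not pass the filter, at 1.41, 1.27 and 0.952 CPM with shCTRL and 0.751 to 0.964 CPM over the 6 knockdown libraries.

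TAP1 held 45.0, 38.6 and 24.5 CPM with shCTRL, 26.2, 27.6 and 10.7 CPM with shSIRT3-1 and 52.8, 47.3 and 30.2 CPM with shSIRT3-2. Replicate 3 was the lowest in each group. Each knockdown group overlapped the controls, and all 3 shSIRT3-1 libraries lay below all 3 shSIRT3-2 libraries, as they did for 31.5% of all genes. The change with shSIRT3-1 was -0.82 ± 0.39 (adjusted p = 0.12), became -0.38 (adjusted p = 0.30) without HBL1 shSIRT3-1 replicate 3, and was called at -0.63 (adjusted p = 0.00031) without replicate 3 of all 3 groups. With the replicate number as a block, TAP1 was called lower with shSIRT3-1 (adjusted p = 0.0037) and higher with shSIRT3-2 than with shSIRT3-1 (adjusted p = 0.0016). The difference of shSIRT3-2 from shSIRT3-1 was 1.09 ± 0.39 (adjusted p = 0.052), or 0.65 (adjusted p = 0.097) without HBL1 shSIRT3-1 replicate 3, and was called without HBL1 shSIRT3-1 replicate 1 (0.049) or 2 (0.036).

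HLA-B held 358, 358 and 287 CPM with shCTRL, 343, 394 and 162 CPM with shSIRT3-1 and 268, 269 and 174 CPM with shSIRT3-2. The low shSIRT3-1 value is replicate 3, in which B2M was 289.7 CPM beside 531 and 513 CPM in the other replicates and TAP2 19.6 CPM beside 44.5 and 47.3 CPM. In the same library NLRC5 stayed at 129.8 CPM. Without that library the difference of shSIRT3-2 from shSIRT3-1 was called lower for HLA-B (-0.66, adjusted p = 0.026) and HLA-C (-0.62, adjusted p = 0.014), beside -0.27 (adjusted p = 0.52) and -0.26 (adjusted p = 0.49) with it, and NLRC5 stayed called with shSIRT3-1 (0.72, adjusted p = 0.012).

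**Figure D4:**
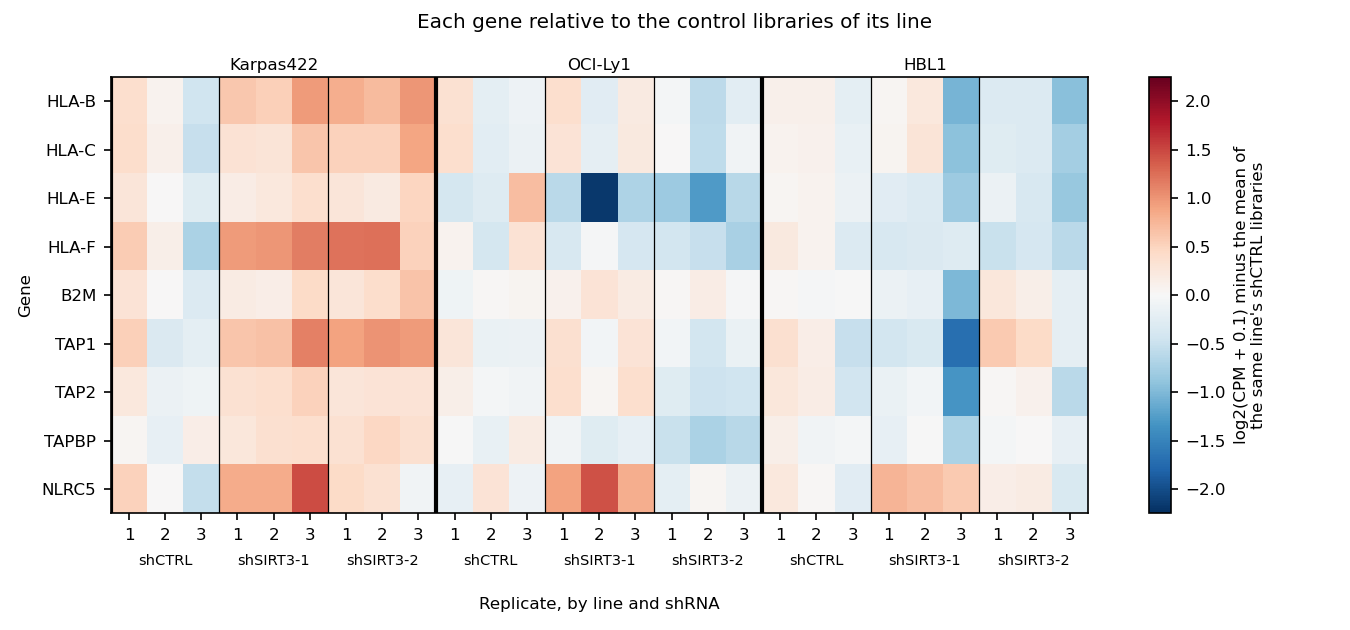
Each gene in each library as log2(CPM + 0.1) minus the mean of the same line's shCTRL libraries, with red for higher, blue for lower and columns ordered by line, hairpin and replicate. The median of the 9 genes is 0.35 to 0.62 in the 6 Karpas422 knockdown libraries with shCTRL replicate 1 of that line at 0.38. It is -0.93 in HBL1 shSIRT3-1 replicate 3, where NLRC5 stays red, and -0.60 in HBL1 shSIRT3-2 replicate 3.

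The response to the hairpins differed between lines for 5 of the 9 genes (F test over both hairpins), where 41.8% of all genes differed. The adjusted p was 0.0019 for TAPBP, 0.0058 for HLA-F, 0.010 for TAP1, 0.042 for HLA-B and 0.046 for TAP2. HLA-C (0.12), B2M (0.082), HLA-E (0.077) and NLRC5 (0.56) did not pass. With the replicate number as a block HLA-E (0.0087), HLA-C (0.028) and B2M (0.044) passed as well, 8 of 9 in all, where 58.8% of all genes did in that fit. Of 30 fits that left out a library or a replicate number of every group, the call was lost in 2 for HLA-F (0.12 and 0.083), 2 for TAP1 (0.10 and 0.11) and 1 for TAPBP (0.12), each time without a replicate number. HLA-F did not pass the filter within OCI-Ly1 or HBL1 and entered this fit mainly through Karpas422, whose knockdown libraries are highest, so its differences between lines are given as values and support nothing. The call was lost in 16 for HLA-B and 23 for TAP2, with adjusted p up to 0.22 and 0.27.

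Against Karpas422, the response of HBL1 to shSIRT3-1 was lower for HLA-F (-1.36 ± 0.36, adjusted p = 0.014), TAP1 (-1.63 ± 0.42, adjusted p = 0.012) and TAPBP (-0.63 ± 0.19, adjusted p = 0.026), 3 of 9 beside 8.01% of all genes. Without HBL1 shSIRT3-1 replicate 3 these were -1.38 (adjusted p = 0.023), -1.19 (adjusted p = 0.030) and, no longer called, -0.42 (adjusted p = 0.066). Its response to shSIRT3-2 was lower for HLA-B (-1.36 ± 0.38, adjusted p = 0.019), HLA-C (-1.09 ± 0.37, adjusted p = 0.048) and HLA-F (-1.49 ± 0.36, adjusted p = 0.008), 3 of 9 beside 8.46%. HLA-C was not called there by edgeR's quasi-likelihood test. The response of OCI-Ly1 was lower than that of Karpas422 for HLA-F alone with shSIRT3-1 (-1.29 ± 0.36, adjusted p = 0.046), 1 of 9 beside 0.91%, and edgeR's quasi-likelihood test called 0 of 9. With shSIRT3-2 it was lower for HLA-F (-1.54 ± 0.36, adjusted p = 0.013) and TAPBP (-1.01 ± 0.19, adjusted p = 0.0023), 2 of 9 beside 2.23%. HLA-F is counted in each of these comparisons with Karpas422. Its differences between lines support nothing, so the counts are not read as above the shares of all genes. Between HBL1 and OCI-Ly1, limma called 0 of 9 with either hairpin, with 3 and 1 at an unadjusted p under 0.05, and edgeR's likelihood ratio and quasi-likelihood tests both called 0 with shSIRT3-1 and 1 (TAPBP) with shSIRT3-2. Of the 13076 genes tested, limma called 1686 lower and 582 higher with shSIRT3-1, and 1090 lower and 504 higher with shSIRT3-2. With the replicate number as a block, the response of HBL1 to shSIRT3-1 was called lower than that of OCI-Ly1 for TAP2 (-0.78, adjusted p = 0.0030), TAP1 (-1.02, adjusted p = 0.0072) and B2M (-0.64, adjusted p = 0.048). Without HBL1 shSIRT3-1 replicate 3 and with no block these differences were -0.37, -0.58 and -0.35 (adjusted p = 0.31, 0.27 and 0.25). The share of all genes called for this comparison with the block is not given here. By the F test the block raised the share of all genes that differed between lines from 41.8% to 58.8%. Against Karpas422 the block also added HLA-E for OCI-Ly1 and HLA-B, TAP2 and B2M for HBL1 with shSIRT3-1. With shSIRT3-2 it added HLA-E, HLA-B, TAP2 and TAP1 for OCI-Ly1. The hairpin comparisons of a line share its control libraries.

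Across the 27 libraries, each taken relative to its line's controls, Pearson's r over the 36 pairs of genes ran from -0.13 to 0.98 with a median of 0.66. The highest were HLA-B with HLA-C (0.98), TAP1 with TAP2 (0.89) and B2M with TAP1 (0.85). The pairs of NLRC5 ran from -0.13 with HLA-E to 0.40 with HLA-F, and HLA-E with B2M had 0.28. These are descriptions over libraries that share controls and hairpins, and HLA-B and HLA-C may share reads.

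The genes outside the list most like the mean of the 9 were HLA-H (r = 0.94), AMIGO2 (0.87), FCHSD2 (0.87), IFIH1 (0.86) and MICAL3 (0.86), over the same 27 libraries. HLA-H is a class I pseudogene whose reads can come from the other HLA genes, and IFIH1 encodes the RNA sensor MDA5, itself an interferon-stimulated gene. Within single lines, 9 libraries each, IFIH1 had r of 0.93 for Karpas422, 0.78 for OCI-Ly1 and 0.66 for HBL1.

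Of the genes that supply peptides (the immunoproteasome subunits PSMB8, PSMB9 and PSMB10, the activator subunits PSME1 and PSME2, and the trimming enzymes ERAP1 and ERAP2), 0 of 7 were called over the 3 lines with either hairpin by limma or either edgeR test, and 1 had an unadjusted p under 0.05 with each. Of all genes, 3.92% were called higher and 9.09% lower with shSIRT3-1, and 3.29% and 10.2% with shSIRT3-2. The members with the largest mean change over both hairpins were ERAP2 (-0.32 ± 0.11 with shSIRT3-1 and -0.22 ± 0.11 with shSIRT3-2), PSMB8 (-0.20 ± 0.16 and -0.22 ± 0.16), PSME1 (0.20 ± 0.12 and 0.17 ± 0.12) and PSME2 (0.19 ± 0.16 and 0.17 ± 0.16). PSMB9, which neighbours TAP1, was the 1 gene of 7 called lower in HBL1 with shSIRT3-1 (-0.87 ± 0.26, adjusted p = 0.028), beside 18.8% of all genes. It went from 31.7, 26.8 and 18.2 CPM to 15.7, 16.5 and 9.58 CPM. Without HBL1 shSIRT3-1 replicate 3 it was not called (-0.63, adjusted p = 0.0502).

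Of the 4 loading chaperones CALR, CANX, PDIA3 and TAPBPL, 1 was called higher over the 3 lines with each hairpin, beside 3.92% and 3.29% of all genes. This was calreticulin (CALR) with both hairpins (0.91 ± 0.18, adjusted p = 0.00031, and 1.09 ± 0.18, adjusted p = 4.9e-05). It went from 174 to 219 CPM in Karpas422 controls to 360.3 to 425 CPM over the 6 knockdown libraries, and from 244 to 268 CPM in HBL1 controls to 384 to 654 CPM with shSIRT3-1 and 812 to 875 CPM with shSIRT3-2. Its OCI-Ly1 controls spread from 126 to 447 CPM and it was not called there. PDIA3 changed by 0.28 ± 0.11 and 0.32 ± 0.11, TAPBPL by 0.36 ± 0.12 and -0.06 ± 0.12 and CANX by -0.09 ± 0.12 and -0.06 ± 0.12, none called. Both CALR calls over the 3 lines held whichever library was left out.

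Among 16 regulators of class I transcription, 2 were called lower with shSIRT3-1 (NFYB and RFXAP) and 2 with shSIRT3-2 (NFYC and IRF2), where 9.09% and 10.2% of all genes were. RFXAP, a subunit of the X-box complex RFX, changed by -0.72 ± 0.15 (adjusted p = 0.0004) and -0.17 ± 0.15 (adjusted p = 0.37). RFX5, which binds DNA in that complex, changed by -0.39 ± 0.08 (adjusted p = 0.00057) and -0.44 ± 0.08 (adjusted p = 0.00018), below the fold threshold. The Y-box subunit NFYC changed by -0.32 ± 0.11 and -0.63 ± 0.11 (adjusted p = 5.7e-05), and IRF2 by -0.27 ± 0.12 and -0.72 ± 0.12 (adjusted p = 5.9e-05). The list's median was -0.29 and -0.08.

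Of 8 interferon receptors and kinases, SOCS1, a feedback inhibitor of JAK kinases, was called higher with shSIRT3-1 (1.22 ± 0.27, adjusted p = 0.00088) and not with shSIRT3-2 (-0.34 ± 0.27, adjusted p = 0.34), and IFNGR1 was called lower with shSIRT3-2 (-0.63 ± 0.12, adjusted p = 0.00019), 1 of 8 each beside 3.92% of all genes called higher with shSIRT3-1 and 10.2% lower with shSIRT3-2. SOCS1 was lower with shSIRT3-2 than with shSIRT3-1 by -1.56 ± 0.27 (adjusted p = 9.8e-05). JAK1 changed by 0.34 ± 0.14 and 0.43 ± 0.14 and IFNAR2 by 0.43 ± 0.11 and 0.26 ± 0.11, not called. Of 10 other class I-like molecules, ULBP1, a ligand of the NK cell receptor NKG2D, was called lower with both hairpins (-2.87 ± 0.34, adjusted p = 7.4e-07, and -2.81 ± 0.34, adjusted p = 1.3e-06). It held 12.6 to 20.0 CPM in HBL1 controls and 0.98 to 2.85 CPM in the knockdown libraries. In Karpas422 it passed the filter only through its 3 control libraries (4.34 to 5.90 CPM, with 0.371 to 0.889 CPM in the knockdown libraries), and it was not tested within OCI-Ly1, where the controls held 0.921, 12.0 and 1.04 CPM. CD1C was called higher with shSIRT3-1, and CD1D (-1.23 ± 0.18) and ULBP3 (-0.86 ± 0.16) lower with shSIRT3-2. With shSIRT3-1, 1 of 10 was thus called higher and 1 lower, beside 3.92% and 9.09% of all genes, and with shSIRT3-2, 3 were called lower, beside 10.2%. MR1 changed by -0.45 ± 0.17 and -0.57 ± 0.17 and ULBP2 by -0.58 ± 0.18 and -0.38 ± 0.18, not called by limma, while both edgeR tests called MR1 with each hairpin and ULBP2 with shSIRT3-1. Within HBL1, ULBP2 passed the filter only through the shSIRT3-2 libraries.

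Some interferon-stimulated genes were called in each line, and the counts depended on single libraries. Of 19 such genes, 17 had a response that differed between lines (F test, adjusted p under 0.05), where 41.8% of all genes did. In OCI-Ly1 13 were tested, of which IFI44, IFI44L and XAF1 passed the filter only through the shSIRT3-1 libraries, where they are high. Of the other 10, 5 were called higher with shSIRT3-1 and 0 with shSIRT3-2, beside 2.04% and 2.15% of all genes, and the 5 became 0 without shSIRT3-1 replicate 2 or 3. In Karpas422 0 of 17 were called with shSIRT3-1 (5 at an unadjusted p under 0.05, 0 by either edgeR test) and 10 were called higher with shSIRT3-2 (7 by edgeR's likelihood ratio test and 5 by its quasi-likelihood test), beside 4.45% and 5.55% of all genes called higher. In HBL1 7 of 19 were called lower with shSIRT3-1, beside 18.8% of all genes, while 3 were called higher with shSIRT3-2, beside 7.51%, and 14 of 19 were higher with shSIRT3-2 than with shSIRT3-1, where 14.9% of all genes were.

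The median log2 fold change of the tested genes of this list in Karpas422 was 0.83 with shSIRT3-1 and 1.64 with shSIRT3-2. For OCI-Ly1 the medians were 0.72 and 0.03 over the 10 genes, and for HBL1 they were -1.28 and 0.51. ISG15, a ubiquitin-like protein, held 173, 159.8 and 125 CPM in HBL1 with shCTRL, 83.3, 64.0 and 23.5 CPM with shSIRT3-1 and 266, 195 and 190.0 CPM with shSIRT3-2. In Karpas422 its controls held 331, 81.3 and 52.5 CPM, so that replicate 1 was at the level of the knockdown libraries (228 to 382 CPM). Over the 3 lines RSAD2 was called higher with both hairpins (1.72 ± 0.48, adjusted p = 0.0065, and 2.90 ± 0.48, adjusted p = 5.4e-05). The call with shSIRT3-1 held in 29 of 30 fits that left out libraries. IFI44 was called with shSIRT3-1 (1.47 ± 0.47, adjusted p = 0.016), and IFIT1 (1.60 ± 0.48, adjusted p = 0.011) and IFI6 (1.44 ± 0.43, adjusted p = 0.010) with shSIRT3-2.

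Without Karpas422 shCTRL replicate 1, 16 of 17 interferon-stimulated genes were called higher with shSIRT3-1 and 17 of 17 with shSIRT3-2, where 4.54% and 5.19% of all genes were in that fit. Without shCTRL replicate 2 these counts were 0 and 3 (3.89% and 4.63% of all genes) and without shCTRL replicate 3 they were 0 and 4 (4.68% and 6.06%). Without any 1 of the 6 knockdown libraries, 4 to 9 were called with shSIRT3-2, beside 5% to 5.91%. Without HBL1 shSIRT3-1 replicate 3, 6 of 19 were called lower and 1 higher with shSIRT3-1 (19% and 7.93% of all genes), with a median of -0.79, and 11 were higher with shSIRT3-2 than with shSIRT3-1 (12.6%). Without HBL1 shCTRL replicate 1 or 2, 1 of 19 was called lower (14.2% and 13%). In OCI-Ly1 with shSIRT3-1, 0 of 10 tested were called without shSIRT3-1 replicate 2 or 3 (0.189% and 0.0718% of all genes called higher), 2 of 10 without shSIRT3-1 replicate 1 (0.745%) and 4 of 13 without shCTRL replicate 3 (0.458%), IFI44, IFI44L and XAF1 being among the 13.

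**Figure D5:**
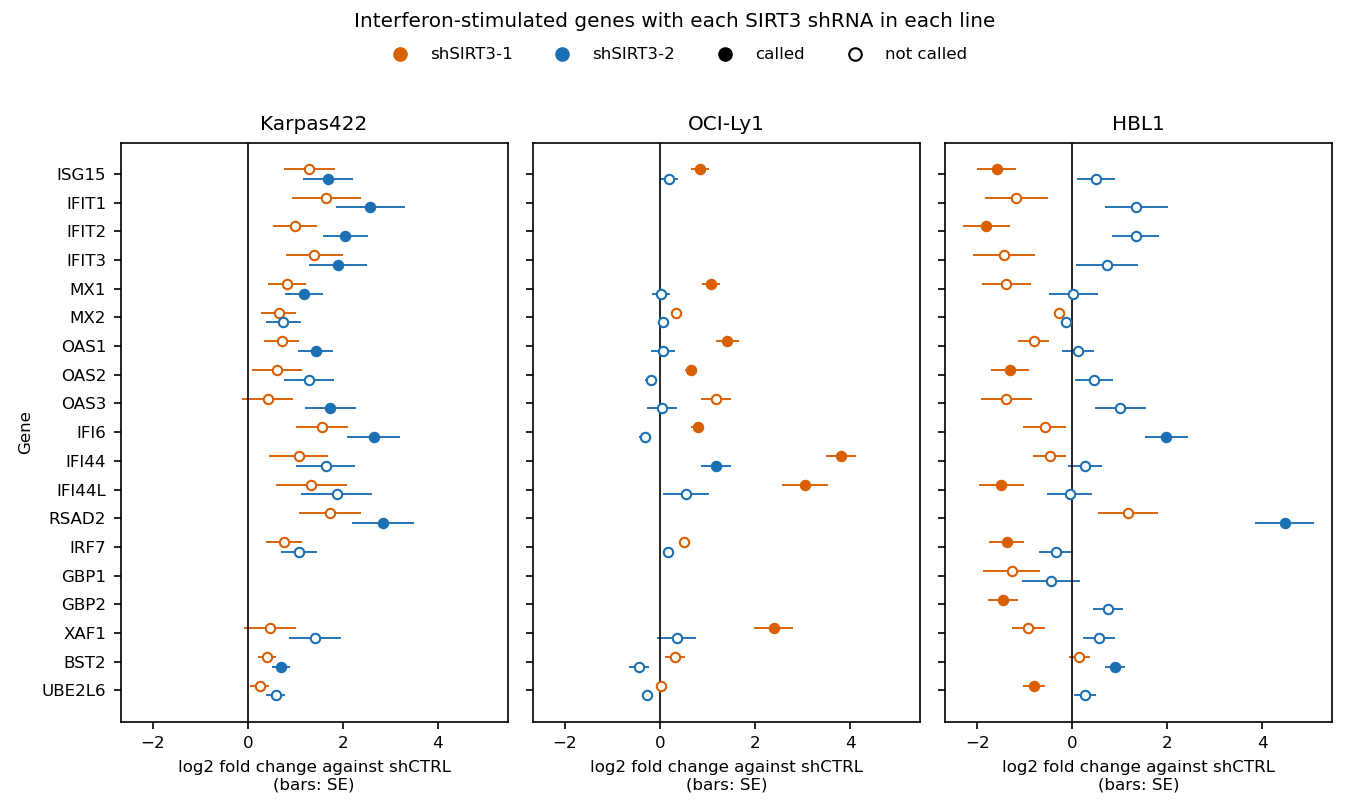
Log2 fold change of each interferon-stimulated gene against shCTRL (horizontal axis, with bars for the SE) for both hairpins in each line, with filled points for called changes. With shSIRT3-1 most points lie right of 0 in Karpas422 and OCI-Ly1 and left of 0 in HBL1 (medians of the points 0.83, 0.84 and -1.28, the OCI-Ly1 points including IFI44, IFI44L and XAF1), and genes that did not pass the filter of a line have no point there.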

How the data were processed

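Paired-end RNA-seq libraries (TruSeq, random-primed) of 27 samples were aligned by the authors to hg19 with STAR, as the processing notes in the labels also state, and counted on RefSeq genes with Rsubread. The deposited values, named FPKM in the file headers, behave as CPM: in every library they were whole multiples of 1 step (tolerance 0.1 read), with no gene length in them and a total that exceeds the reads on genes, which were 40.3% to 45.6% of it. The lowest share was in HBL1 shSIRT3-1 replicate 3, beside 42.6% and 43.1% in its group and 43.9% to 45.1% in HBL1 controls. A lower share lowers the CPM of all genes, and its part in the low values of that library was not tested. Reads were recovered by dividing by the step, which is less certain for 2 OCI-Ly1 libraries (shCTRL replicate 3 and shSIRT3-2 replicate 1), where the step lies near the rounding of the file.

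limma 3.58.1 (R 4.3.3, variance trend) was fitted on log2(CPM + 0.1), where a fold change understates low genes, for genes that reached 1 CPM in 3 or more libraries of the fit: the 9 libraries of a line, all 27 with cell line as a term, all 27 with 1 mean per group for differences between lines, or the 9 shCTRL libraries. Calls needed a change of over 1.5-fold together with an adjusted p (Benjamini-Hochberg, all genes tested) below 0.05. limma replaced the study's edgeR model because the values are normalized, and edgeR 4.0.16 likelihood ratio and quasi-likelihood tests on the recovered reads were alternatives. The fit was tested on simulated data. Replicate numbers are from the labels, which do not say what they share. By the correlation of deviations from the group means, same-numbered pairs had r of 0.109 to 0.564 in OCI-Ly1, 0.217 to 0.498 in HBL1 and 0.0144 to 0.492 in Karpas422. Pairs with other numbers reached 0.347, in HBL1. Whether the numbers pair the libraries of a line was therefore not settled, and the main fits have no block. Errors are SE of a log2 fold change or SD of 3 replicates. Other alternatives were pseudocounts of 1 and 0.01, no filter, quantile and median-ratio scaling, no variance trend, a replicate block, other sets of libraries, and leaving out libraries or lines.

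The members and gene lists were chosen with earlier results of these data known. Named genes are all members, up to 4 of each list with the largest mean change over both hairpins or called the same way with both, and the 5 genes most like the members. Genes given beyond this (PSMB9, ISG15, NFYB, CD1C, ULBP2, IFI44L and XAF1) were named after their values were seen. Gene positions come from GENCODE 44 on GRCh37 and promoters from RefSeq on GRCh38.p14. Figures were drawn with matplotlib 3.10.9. One marker of the B-cell list is not reported here.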

Additional observations from a re-analysis of the deposited data

Results flagged for a closer look

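The response to the SIRT3 hairpins differed between cell lines for 5 genes, which is what brings them here (limma's F test over both hairpins, adjusted over all 13076 genes tested). The adjusted p was 0.00186 for TAPBP, 0.00576 for HLA-F, 0.0101 for TAP1, 0.0419 for HLA-B and 0.0457 for TAP2. With the replicate block HLA-E (0.0087), HLA-C (0.028) and B2M (0.044) passed too, where 58.8% of all genes did. HLA-F entered this fit mainly through Karpas422 and did not pass the filter within the other lines. TAPBP gave 0.39 in Karpas422 and fell by 0.62 on the log2 scale in OCI-Ly1 with shSIRT3-2, while HBL1 gave -0.07. TAP1 had 0.81, 0.20 and -0.82 with shSIRT3-1 in Karpas422, OCI-Ly1 and HBL1. HLA-B had 0.84, -0.29 and -0.52 with shSIRT3-2 in the same order. Because 41.8% of all genes tested differed between lines by the same test, 5 of 9 is near the background. The HBL1 value of TAP1 depends on HBL1 shSIRT3-1 replicate 3 (-0.38 without it), and the part of that library, of the COL1A2 shift in HBL1 and of the B-cell marker shifts in Karpas422 and HBL1 was not tested.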

How the results depend on the processing

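Leaving out 1 library, or 1 replicate number in every group, kept the 1 gene called over the 3 lines with shSIRT3-1 (NLRC5), the 0 with shSIRT3-2 and the 1 between hairpins (NLRC5). Within lines the number called ranged from 0 to 4 with shSIRT3-1, 0 to 5 with shSIRT3-2 and 0 to 1 between hairpins in Karpas422, from 0 to 1, 0 to 1 and 0 to 2 in OCI-Ly1, and from 0 to 2, 0 to 0 and 0 to 3 in HBL1. The number of genes whose response differed between lines ranged from 0 to 6. Without Karpas422, 2 genes were called over the other lines with shSIRT3-1, HLA-E being added. With no filter, 2 genes in place of 4 were called in Karpas422 with shSIRT3-2 (HLA-F, adjusted p = 0.074, and HLA-C, 0.075, were lost), HLA-F was lost there with shSIRT3-1 (0.061), and 3 in place of 5 differed between lines, the same number as with no variance trend and with edgeR's quasi-likelihood test. NLRC5 became the 1 call between hairpins in Karpas422 under quantile normalization, median-ratio scaling and both edgeR tests. TAP1 joined NLRC5 (2 calls) between hairpins in HBL1 with edgeR's likelihood ratio test. With all 27 libraries fitted together, 2 genes were called with shSIRT3-1 in OCI-Ly1 (HLA-E added) and 2 in HBL1 (TAP1 added), while in Karpas422 HLA-B with shSIRT3-1 (0.060) and HLA-C with shSIRT3-2 (0.075) were lost. HLA-C was lost there also with no variance trend (0.055) and edgeR's quasi-likelihood test (0.053). Between control lines 6 to 7, 4 to 5 and 6 to 8 genes were called when libraries were left out (OCI-Ly1 and HBL1 against Karpas422, HBL1 against OCI-Ly1). The HLA-F difference between HBL1 and OCI-Ly1 controls reversed to -0.32 under quantile normalization. The cause of these shifts was not tested.

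Same-numbered libraries had a mean correlation of 0.32 over 27 pairs, over 0.1 in 26, the exception being a Karpas422 pair. With the replicate block, 2 genes were called with shSIRT3-1 in OCI-Ly1 (HLA-E added, adjusted p = 0.033) and 2 in HBL1 (TAP1 added, 0.0037), 2 between hairpins in HBL1 (TAP1 added, 0.0016), and 8 differed between lines, while HLA-C in Karpas422 with shSIRT3-2 was lost (0.055). Against Karpas422 the block added HLA-E for OCI-Ly1 and HLA-B, TAP2 and B2M for HBL1 with shSIRT3-1, and HLA-E, HLA-B, TAP2 and TAP1 for OCI-Ly1 with shSIRT3-2, and no further within-line call of the 9 genes changed. The share of all genes called in these blocked comparisons is not given here. By the F test the block raised the share of all genes that differed between lines from 41.8% to 58.8%. For the control comparison the block, a replicate number within its line, has 1 library each and leaves no residual degrees of freedom, so it was not run. Quantile normalization moved the share of higher calls among all genes from 30.1% to 45.4% with shSIRT3-1 and from 24.4% to 42.6% with shSIRT3-2 over the 3 lines, from 27.9% to 47.0% in Karpas422 with shSIRT3-1, and in HBL1 from 32.0% to 51.6% and 50.4% with shSIRT3-1 and shSIRT3-2, where median-ratio scaling gave 43.6% and 47.3%. The median of all genes in HBL1 with shSIRT3-1 moved from -0.11 to 0.04. HLA-F rests on 32 to 278 reads a library and NLRC5 in OCI-Ly1 on 141 to 458, which limits their precision.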
